A study of Drosophila melanogaster with 4 samples.

Results

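The kinase Cdk1, the mitotic cyclins CycA, CycB and CycB3, the Cdc25 phosphatases stg and twe, the inhibitory kinases Wee1 and Myt1 and the Cdk-binding proteins Cks30A and Cks85A form the core switch of mitotic entry, and their 10 genes were examined for Dam-Pr-set7 summits in Drosophila melanogaster. The genes were chosen by name, with earlier results of these data known. They were taken out of 13922 protein-coding genes on the 6 chromosome arms 2L, 2R, 3L, 3R, 4 and X. A summit, the highest point of a called peak, was counted for a gene when it lay inside the gene span or up to 2000 bp beyond either end in dm6. Cdk1 is active only when bound to a mitotic cyclin. Wee1 and Myt1 hold the complex inactive by phosphorylating Cdk1, the Cdc25 phosphatases remove these phosphates, and the anaphase-promoting complex (APC/C) ends the cycle by marking the cyclins for destruction. Many neural stem cells of the early larva are quiescent and must pass through this switch when they re-enter division.

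The study used targeted DamID, in which the bacterial methylase Dam marks adenines of GATC motifs near the DNA it contacts, in neural stem cells of larvae. One genotype carried UAS-Dam-Pr-set7 (the construct pUASTattB-LT3-NDam-Pr-set7), a fusion of Dam to the histone H4 methyltransferase Pr-set7, and the control genotype carried UAS-Dam. Both genotypes were driven by grh-Gal4, so that the marks come from every cell in which this driver is active. Eggs laid over 6 h were kept at 25 °C for 24 h, and hatched larvae at 29 °C for 24 h before dissection. By the series' design text, each of 2 batches gave 1 Dam-Pr-set7 sample and 1 Dam sample, 4 samples in all. The summit lists of the 2 Dam-Pr-set7 samples are described here, and the Dam samples were not analysed here, so no summit was set against the Dam background and no test between genotypes was made. Nothing in the labels gives the number of animals. A mark made in more cells and a mark made more often per cell cannot be told apart in such samples.

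Replicate 1 listed 2876 summits and replicate 2 listed 4281, with median heights of 42 and 37 fragments. The height is the authors' pileup of fragments at the summit and is not scaled to depth, which is unknown. Heights are therefore given with their percentile within the same list. Each replicate is its own batch, so replicate and batch cannot be told apart. Summits record contact with DNA and not expression, and the lists gave no check of the labelled cell type. Of 6 marker genes of neural stem cells (dpn, wor, ase, mira, insc and grh), 0 had a summit in both replicates. In replicate 2 alone, insc had 1 summit, at percentile 69.1, and grh had 2, the higher at percentile 63.8. All 3 neuron markers (elav, nSyb and brp) and 1 of 3 glia markers (repo) had summits in both, against 23.3% of all genes. The neuron markers are long, with a median span of 13992 bp, and insc and grh span 14767 and 41689 bp. The stem cell markers dpn, wor, ase and mira span 2284 to 3360 bp. Whether span accounts for the marker counts was not tested. In replicates 1 and 2 the highest summits were at percentiles of 95.9 and 99.3 at elav and 84.7 and 95.7 at nSyb. At brp they were at 66.9 and 76.5. Each neuron marker had a pair of summits of opposite replicates within 500 bp, as did 21.3% of all genes. The highest repo summits were at percentiles of 7.42 and 10.9 and not shared within 500 bp.

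Cdk1 and CycA were the members with a summit in both replicates. CycB, twe and Myt1 had summits in replicate 2 alone, and CycB3, stg, Wee1, Cks30A and Cks85A had none in either list. Summits in both replicates were thus found at 2 of 10 members (20%), close to the 23.3% of all protein-coding genes. In replicate 1 the same 2 members were reached, against 28.3% of all genes. In replicate 2 it was 5 of 10 members, against 34.9% of all genes. Presence in replicate 2 with absence in replicate 1 applied to 3 of 10 members and to 11.6% of all genes, and the reverse to 0 of 10 members and 4.98% of all genes. A summit in either list was present at 5 of 10 members and at 39.9% of all genes, and the remaining 5 members had none, as did 60.1% of all genes. The members' spans ran from 1219 to 6860 bp with a median of 2966 bp, against a median of 2163 bp over all genes. Among the 7614 protein-coding genes with a span in that range, 22.7% had summits in both replicates, 28.0% in replicate 1, 34.2% in replicate 2 and 60.5% in neither. With 10 genes and 2 lists from 1 genotype, these shares are a description and no test was made.

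**Figure D1:**
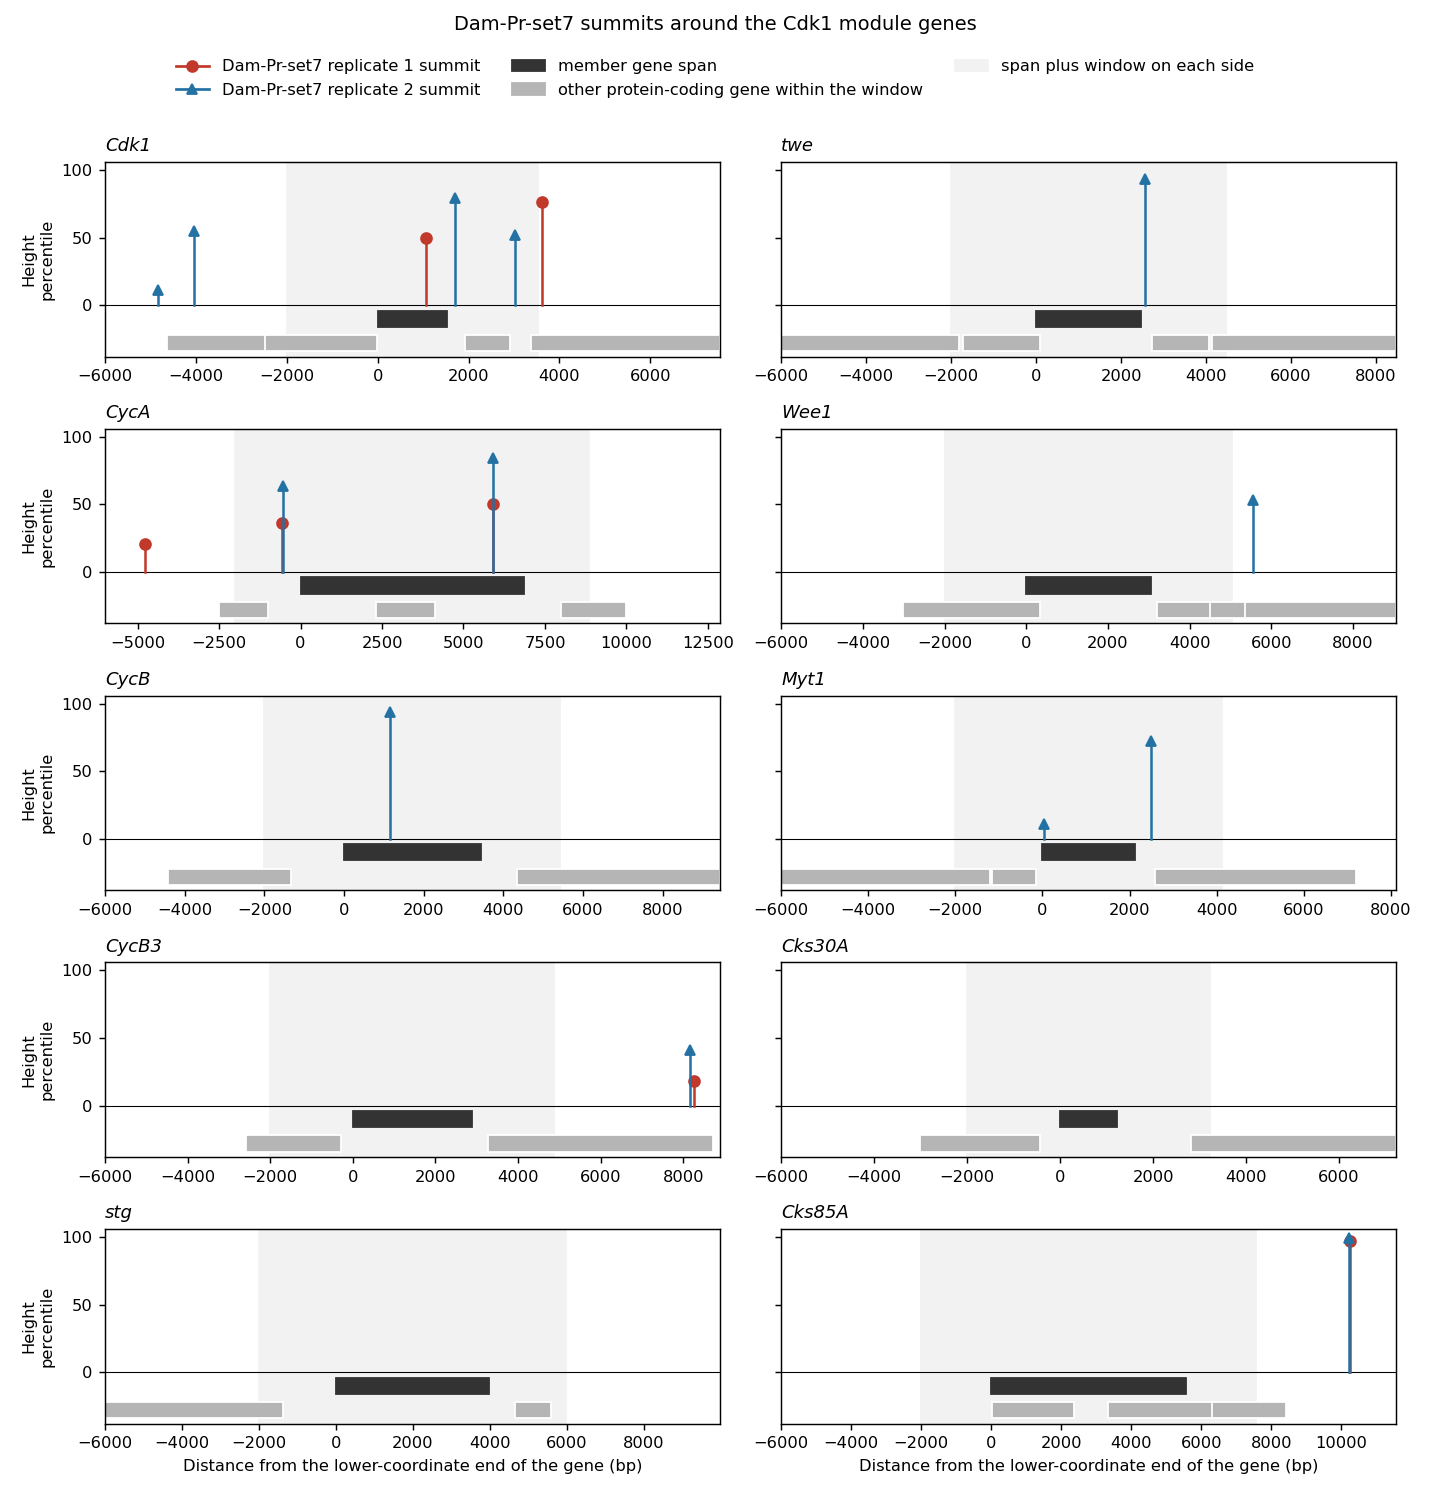
Positions of Dam-Pr-set7 summits around the 10 genes, with distance in bp from the gene end of lower coordinate on the horizontal axis and the height percentile within each summit list on the vertical axis. Red circles are replicate 1 and blue triangles replicate 2, and the pale band is the gene span with 2000 bp on each side. The summits of the replicates coincide at CycA, lie apart at Cdk1 and come from replicate 2 alone at CycB, twe and Myt1.

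Cdk1, the kinase itself, lies on 2L at 10384739 to 10386262 and spans 1524 bp. Replicate 1 had a single summit in the window, at 10385804 inside the gene, with 42 fragments (percentile 49.7). It lay 1065 bp from the lower end of the gene and 458 bp from the upper end. Replicate 2 had a pair, at 10386443 with 73 fragments (percentile 79.6) and at 10387760 with 38 fragments (percentile 51.7), both outside the gene. These were 181 and 1498 bp beyond the upper end. In neither replicate did a summit lie in the 2000 bp beyond the lower end, where CG5096 lies 16 bp and gny, a glycosyltransferase gene, 1875 bp from Cdk1.

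The Cdk1 summits of the replicates did not coincide. The nearest summits of opposite replicates were 639 bp apart, against the 500 bp used here to call summits shared. The summit of replicate 2 at 10386443 falls in the gap of 400 bp between Cdk1 and mRpS7, a mitochondrial ribosomal protein gene, at 181 and 219 bp from them. The second summit of replicate 2 lies between mRpS7 and da, which encodes the transcription factor Daughterless, 108 bp and 345 bp from these genes, and so is nearer to both than to Cdk1. Its nearest summit in replicate 1 was 602 bp further on, at 10388362 inside da, with 75 fragments (percentile 76.4) and 2100 bp from Cdk1, just beyond the window. Along this stretch the lists therefore held 4 summits in the order replicate 1, replicate 2, replicate 2, replicate 1, with no shared pair. GATC positions, which set where DamID fragments can end, were not used here.

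The mitotic cyclins differed from one another. CycA, the cyclin A gene, lies on 3L at 11826719 to 11833578 and has the longest span of the 10, at 6860 bp, with the gene CG7264 inside it. It had 2 summits in replicate 1, at 11826150 with 32 fragments (percentile 36.5) and at 11832631 with 43 fragments (percentile 50.7). Replicate 2 also had 2, at 11826180 with 49 fragments (percentile 63.8) and at 11832627 with 84 fragments (percentile 84.0). The first pair was 30 bp apart and the second 4 bp apart, so each summit had its counterpart in the other replicate. These were the only shared pairs in the windows of the members. A shared pair was present at 1 of 10 members and at 21.3% of all protein-coding genes, and 2 or more pairs at 1 of 10 and at 2.89%.

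The summits at CycA lie at opposite sides of the gene. The first pair is outside it, 569 bp from the lower end in replicate 1 and 539 bp in replicate 2, in the gap of 987 bp that separates CycA from CG32095. CG32095 was closer, at 418 and 448 bp. The second pair is inside CycA, 947 and 951 bp from the upper end, and no other protein-coding gene lay within 1000 bp of it. In both replicates the internal summit was the higher of the 2. No summit fell inside CG7264, and CG43064, 1143 bp beyond the upper end, had none within 2000 bp of it.

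CycB, the cyclin B gene, lies on 2R at 22803521 to 22806948. It carried 1 summit in replicate 2, inside the gene at 22804676, with 127 fragments (percentile 94.1), the highest in any member window. It was 1155 bp from the lower end and 2272 bp from the upper end, and the neighbours blw, a mitochondrial ATP synthase subunit gene, and stl, a metalloprotease gene, were 2496 and 3184 bp from it. These genes are 1341 and 912 bp from CycB. CycB was the 1 protein-coding gene whose window held this summit. Replicate 1 had no summit in the window, and its nearest one lay 75596 bp from the gene, at 22882544. In replicate 1 the nearest summit was farther away for 3.56% of all protein-coding genes.

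CycB3, which encodes the third mitotic cyclin, lies on 3R at 24867934 to 24870816 and had no summit in its window in either list. The nearest summits were 5382 bp away in replicate 1 (24876198, 23 fragments, percentile 18.3) and 5289 bp away in replicate 2 (24876105, 31 fragments, percentile 41.2). These were 93 bp apart and lay inside the neighbouring gene CG3744. CG3744 itself is 386 bp from CycB3, and Elal, on the other side, is 283 bp away and had no summit within 2000 bp. The 3 cyclin genes thus gave 3 patterns, with paired summits at CycA, a high summit in 1 replicate at CycB and none at CycB3.

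The activating phosphatases were reached in replicate 2 at twe and in neither replicate at stg. The gene twe (2L, 16259414 to 16261877) encodes the Cdc25 phosphatase best known from meiosis. Its summit in replicate 2, at 16261976 with 121 fragments (percentile 93.2), lay 99 bp beyond the upper end. The gap of 264 bp to CG4935 holds it, at 165 bp from that gene, and crp, a gene of a helix-loop-helix transcription factor, was 1580 bp away. On the other side EndoGI, an endonuclease inhibitor gene, overlaps twe by 98 bp and PRL-1, a phosphatase gene, is 1808 bp away, and no summit lay within 2000 bp of either. The nearest summit of replicate 1 was 7130 bp from it, at 16269106 inside crp with 49 fragments (percentile 56.8), and was paired with one of replicate 2 at 16269143 with 68 fragments (percentile 77.0). The other Cdc25 gene, stg (3R, 29251826 to 29255800), encodes String, the phosphatase that triggers mitosis in somatic cells. Neither stg nor its neighbours SP1029, 1375 bp away, and CG45544, 685 bp away, had a summit within 2000 bp. Its nearest summits were 28582 bp away in replicate 1 (29223244, 80 fragments, percentile 78.9) and 28630 bp away in replicate 2 (29223196, 114 fragments, percentile 91.8). Of all protein-coding genes, 15.9% had no summit within 20000 bp in either list, and stg and Cks30A were the members among them.

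Of the inhibitory kinases, Myt1 was reached in replicate 2 and Wee1 in neither list. Myt1 (3L, 5777476 to 5779591) encodes the membrane-associated kinase. It had a low summit in replicate 2 inside the gene, 31 bp from the lower end, at 5777507 with 17 fragments (percentile 10.9). A further one at 5779974 with 60 fragments (percentile 72.2) was 383 bp beyond the upper end. The low summit is 174 bp from vito and 1236 bp from scny, a deubiquitinase gene, and the other is 77 bp from both Pmi and PGRP-LD, which share annotated ends. The low summit thus belongs by distance to Myt1, and the higher one is nearer to Pmi and PGRP-LD than to Myt1. Replicate 1 had none nearer than 17777 bp from the gene, at 5797368. Wee1 (2L, 6911090 to 6914138) encodes the nuclear kinase. Its span overlaps that of Rat1, an exonuclease gene, by 334 bp. The nearest summits were 32826 bp away in replicate 1 (6946964, 54 fragments, percentile 61.8) and 2511 bp away in replicate 2 (6916649, 39 fragments, percentile 52.9). The summit of replicate 2 lay inside x16, a splicing factor gene 163 bp from Wee1, and also within 2000 bp of CG32829, 1443 bp from Wee1.

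The Cks genes encode small proteins that bind Cdk1 and help it to find its substrates. Neither had a summit in its window. Cks30A (2L, 9330763 to 9331981) has the shortest span of the 10, at 1219 bp. No summit lay within 2000 bp of its neighbours CG17005, 431 bp away, and Eaat1, a glutamate transporter gene 1586 bp away. The nearest summits to Cks30A were 56461 bp away in replicate 1 (9388442, 90 fragments, percentile 82.1) and 30675 bp away in replicate 2 (9362656, 16 fragments, percentile 8.27). In these lists 7.22% and 11.9% of all protein-coding genes had their nearest summit farther away. Cks85A (3R, 8712906 to 8718456) overlaps TMEM216 and holds CG8112 within its span, and CG11760 is 742 bp away. The nearest summits were high and coincided, at 8723137 with 189 fragments (percentile 97.5) in replicate 1 and at 8723125 with 186 fragments (percentile 99.3) in replicate 2. They lay 12 bp apart, at 4681 and 4669 bp from Cks85A, and the gene nearest to them was nom.

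The choice of window decided some of these counts. Within the gene span alone, 1 of 10 members had a summit in both replicates (9.85% of all genes) and within 500 or 1000 bp it was 2 of 10 (14.8% and 18.2% of all genes). Within 5000 bp it was 3 of 10 (34.2% of all genes), through the addition of Cks85A. In replicate 2 the members' shares for windows of 0, 500, 1000, 2000 and 5000 bp were 30%, 50%, 50%, 50% and 70%, against 16.9%, 23.6%, 28.1%, 34.9% and 48.8% of all genes. In replicate 1 they were 20%, 20%, 20%, 20% and 30%, against 12.7%, 18.6%, 22.5%, 28.3% and 40.3%. The members' windows covered 73.1 kb and held 3 summits in replicate 1 and 8 in replicate 2, or 4.11 and 10.9 per 100 kb. The merged windows of all protein-coding genes held 2.44 and 3.55 per 100 kb. The member densities rest on few summits, some of them nearer to other genes than to the member. All genes include long ones, and no density was taken over genes of like span. In replicate 1 the members' share at 2000 bp was below that of all genes, at 20% against 28.3%.

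**Figure D2:**
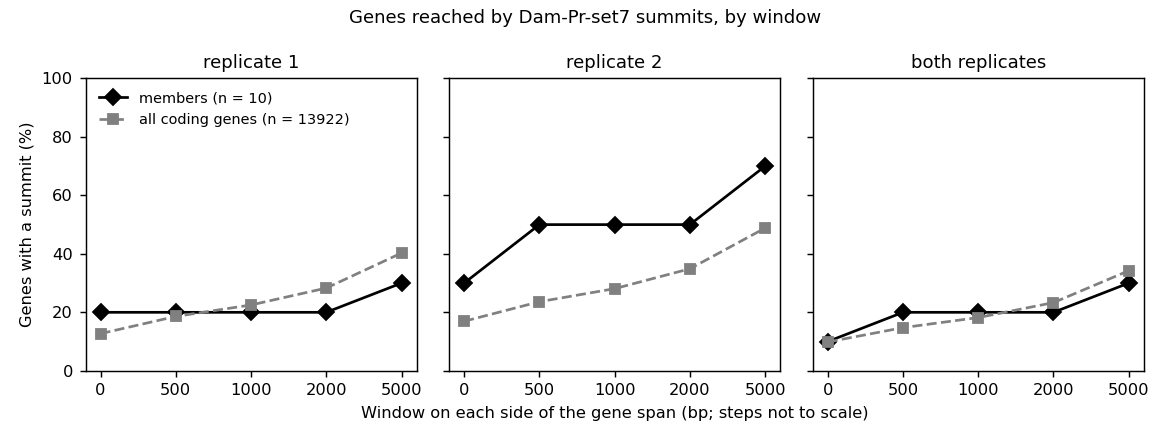
Share of genes with a Dam-Pr-set7 summit (vertical axis, %) for windows of 0 to 5000 bp on each side of the gene span (horizontal axis, steps not to scale), in replicate 1, replicate 2 and both. Black diamonds are the 10 members and grey squares all 13922 protein-coding genes. The members lie above all genes at each window in replicate 2, whereas for both replicates the curves cross.

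The heights of the member summits also differed between the lists. In replicate 1 the 3 summits were at percentiles of 36.5, 49.7 and 50.7, with a median of 49.7. In replicate 2 the 8 summits ran from percentile 10.9 to 94.1, with a median of 75.9, and 7 of the 8 were at or above the median height of the list. By construction the median percentile of all summits is near 50. That set also holds summits outside the windows of genes, and the heights of summits in gene windows alone were not compared. The 8 summits of replicate 2 came from 5 members.

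High summits of replicate 2 were usually found in replicate 1 as well, and those at CycB and twe were not. Over the 6 arms, 1973 of 4240 summits of replicate 2 (46.5%) lay within 500 bp of a summit of replicate 1, and 1972 of 2856 (69.0%) the other way round. In replicate 2 the share was greater in each higher of 10 height classes, with 10.5% in the lowest and 86.1% in the highest. Of the 8 member summits of replicate 2, the 2 at CycA were shared (25%), and of the 3 of replicate 1 likewise the 2 at CycA (66.7%). Among the 424 summits of replicate 2 above percentile 90, 59 (13.9%) had no counterpart within 500 bp. The summits at CycB and twe were among these 59. For 28 of the 424 (6.60%) the nearest summit of replicate 1 was as far away as at twe or farther, and for 2 (0.472%), CycB included, as far as at CycB or farther. Replicate 2 also had a low summit 11573 bp from CycB, at 22791948, with 22 fragments (percentile 22.7). Its nearest summit of replicate 1 was 90596 bp away. Replicate 1 thus had no summit over a wide stretch there, and the long distance is not particular to the CycB summit. CycB and twe were singled out here after their values were seen, and no test was made.

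**Figure D3:**
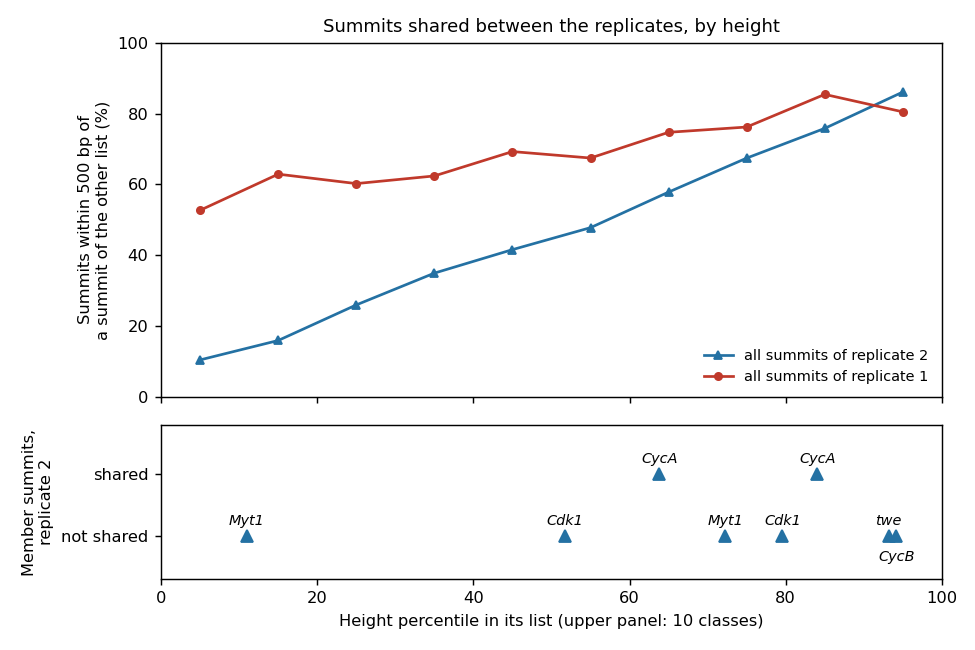
Upper panel, share of summits with a summit of the other list within 500 bp (vertical axis, %) in 10 classes of height percentile (horizontal axis), for all summits of replicate 2 (blue triangles) and replicate 1 (red circles) on the 6 arms. Lower panel, the 8 member summits of replicate 2 at their height percentile, placed by whether they were shared. The CycA summits were shared and those at CycB and twe, in the highest class, were not.

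Genes that act on Cdk1 from outside the core were examined in 3 lists, also chosen with earlier results of these data known. Of 15 controllers of Cdk1 activity, 6 had summits in both replicates (40%), 2 in replicate 2 alone and 7 in neither, against the 23.3% with both, 11.6% and 60.1% of all genes. Those with both were Cdk7 and CycH, subunits of the Cdk-activating kinase, tws and mts, subunits of protein phosphatase PP2A, the mitotic kinase polo and the checkpoint kinase grp. At CycH the highest summits had 96 fragments in replicate 1 (percentile 84.3) and 110 in replicate 2 (percentile 91.1), inside the gene. At polo they had 78 and 73 fragments (percentiles 78.1 and 79.6), at 20310719 and 20310726 on 3L. At grp the highest summits, with 51 and 75 fragments (percentiles 58.6 and 80.3), were more than 500 bp apart. Mat1, the remaining subunit of the Cdk-activating kinase, and gwl, the Greatwall kinase, had summits in replicate 2 alone. Genes without one included trbl, whose product promotes destruction of String, and the Cdk1 inhibitors Z600 and rux.

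Of 16 genes listed with the APC/C, 6 had summits in both replicates (37.5%), 3 in replicate 2 alone, 2 in replicate 1 alone and 5 in neither. Over all genes these shares were 23.3%, 11.6%, 4.98% and 60.1%. The 6 were the subunits mr, APC4, APC7 and APC10, the activator cort, which acts in female meiosis, and vih, the ubiquitin-conjugating enzyme that serves the complex. APC10 had the highest of them, with 129 fragments in replicate 1 (percentile 92.0) and 165 in replicate 2 (percentile 97.7). Within the gene span alone, 2 of the 16 genes had summits in both replicates, against 9.85% of all genes. With each summit given to its nearest gene it was 3 of the 16. The mitotic activator fzy, the Cdc20 of flies, had a summit of 56 fragments (percentile 63.3) in replicate 1 alone. Its counterpart fzr, the Cdh1 of flies, had none.

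Transcriptional regulators of mitotic and proliferation genes, including subunits of the DREAM complex, had summits in both replicates at 7 of 12 genes (58.3%), against 23.3% of all genes. These were mip40, mip120, E2f1, Dp, Rbf, Caf1-55 and Dref. At E2f1, the longest gene of the list, the summits of the replicates were not shared. The highest were at mip40, with 118 fragments in replicate 1 (percentile 89.9) and 144 in replicate 2 (percentile 95.9), and at Dp, the dimer partner of the E2F factors, with 99 and 140 fragments (percentiles 85.2 and 95.5). Caf1-55 had among the lowest, with 22 and 33 fragments (percentiles 16.2 and 44.6). E2f2 had a summit of 152 fragments (percentile 96.6) in replicate 2 alone, and Myb was the 1 gene of this list with none in either replicate. When summits at or above the median height of each list were counted, 3 of the 12 had them in both replicates, against 14.3% of all genes. At that setting it was 2 of 10 members, 4 of 15 controllers and 4 of 16 APC/C genes. The lists hold few genes, many of these summits also lie near other genes, and the shares are not tests of difference from the members or from all genes. Median spans were 2960 bp for the controllers, 2930 bp for the APC/C genes and 3037.5 bp for this list, against 2163 bp over all genes. The list shares were not set beside genes of like span.

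**Figure D4:**
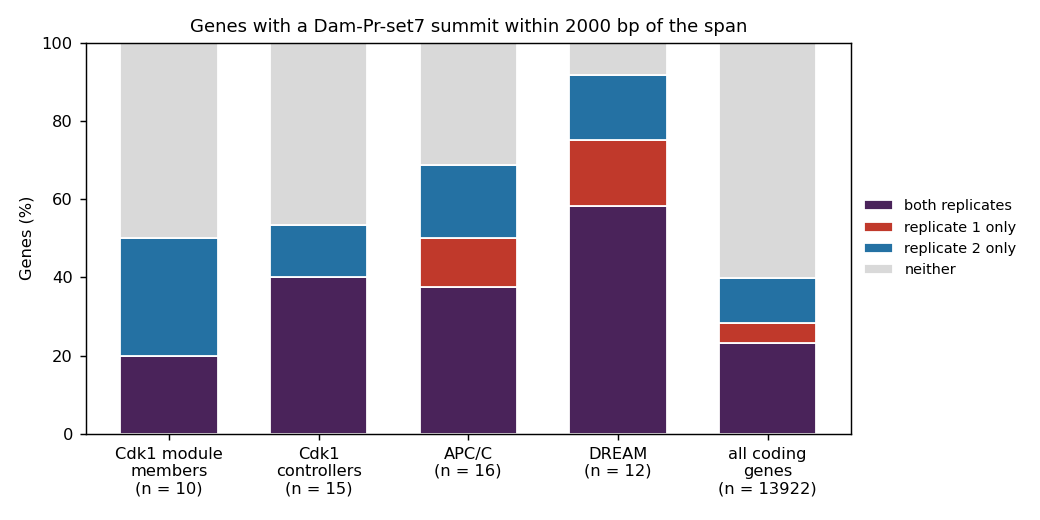
Share of genes (vertical axis, %) with a Dam-Pr-set7 summit within 2000 bp of the gene span in both replicates, in replicate 1 alone, in replicate 2 alone or in neither. Bars are the 10 members, 15 Cdk1 controllers, 16 APC/C genes, 12 DREAM and related genes and all 13922 protein-coding genes, with 20%, 40%, 37.5%, 58.3% and 23.3% in both replicates.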

How the data were processed

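Genomic DNA of 2 Dam-Pr-set7 and 2 Dam samples was cut with DpnI, amplified and sequenced on a MiSeq, per the labels' protocols. The submitters' processing notes name bcl2fastq 2.19.0.316, Bowtie2 2.2.6, MACS 1.4.2 and build dm6. The deposited signal is the pileup height, in fragments, at summits of 1 bp, 1 list per Dam-Pr-set7 sample. Whether Dam samples served as control in peak calling, the cutoffs and the duplicate filters are not given in the sources used here. No SD is given for heights, since depth is unknown.

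Groups follow the genotype in the labels. Replicate numbers are names in order of deposit and pair nothing. Nothing states that the replicates came from separate cultures of animals. Gene spans came from a RefSeq gene table whose assembly, Release 6 plus ISO1 MT, is dm6. Strand, exons, UTRs and sequence were not used here, so a planned count of promoter motifs was not made. Summits were counted for every gene whose span plus 2000 bp on each side held them, 1-based, and were called shared within 500 bp. Percentiles are mean ranks over a whole list. All 10 members matched by symbol, as did 41 of 43 list genes, with Z600 and CG17343 found by synonym. The members and lists were chosen with earlier results of these data known. Genes named are all members, protein-coding neighbours within 2000 bp of a member span or 1000 bp of a member summit, and list genes with summits in both replicates. The other list genes and nom, CG5056, Cnot4, Ir31a and S6k were named after their values were seen. Counts are set beside the share of all protein-coding genes and no tests were made. Python 3.11.15, numpy 2.4.6, pandas 2.3.3 and matplotlib 3.10.9 were used, and the functions were tested on simulated data.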

Additional observations from a re-analysis of the deposited data

How the results depend on the processing

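Members with a summit in both replicates numbered 2, and 1 within the gene span alone. Counted in a single replicate they ranged from 2 to 5. Members with a summit in either replicate numbered 5, and 2 to 5 in a single replicate. Shared member pairs numbered 2, and 1 within the gene span, within 500 bp of it, among summits at or above the median height, or with each summit given to its nearest gene. For that last count the CycA pair outside the gene goes to CG32095. Among summits at or above the median height, the replicate 1 summit of the same pair drops out. Within 1000 bp in place of 500 bp there were 3 pairs, through Cdk1. In the APC/C list 6 genes had summits in both replicates, against 2 within the gene span and 3 by nearest gene, and in the DREAM list 7, against 4 within the gene span and 3 among summits at or above the median height. A single replicate gave 6 to 8 genes in the list of Cdk1 controllers, 8 to 9 in the APC/C list and 9 in the DREAM list. All other planned settings kept these counts within 1.5 times. Keeping only the 2876 highest summits of replicate 2, an alternative chosen after seeing the data, left 5 members reached in replicate 2 and 2 in both, and removed 1 of the Myt1 summits. No paired analysis was possible because the Dam samples were not analysed here. Absence from a list shows only that no summit was called there, and the number of summits limits the precision.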

Other observations

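Near the members, several genes that are not part of the Cdk1 switch had coinciding summits in both replicates. The gene crp, beside twe, had 4 summits inside its span in replicate 1 and 5 in replicate 2. The paired summits closest to Myt1, at 5797368 in replicate 1 with 39 fragments (percentile 46.1 of its list) and at 5797305 in replicate 2 with 35 fragments (percentile 47.6), lay 63 bp apart and nearest to S6k, which encodes the ribosomal protein S6 kinase. Around Cdk1, pairs 17 bp, 5 bp and 14 bp apart lay at 18165, 16536 and 19563 bp from the gene in replicate 1, nearest to CG5056, Cnot4 and Ir31a. The pair at Ir31a was the highest of these around Cdk1, with 161 fragments in replicate 1 (percentile 95.5) and 93 in replicate 2 (percentile 86.7).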
